A study of Homo sapiens with 3 samples.

Results

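Heat shock chaperones, their J-domain partners and the cytosolic chaperonin were examined in PC3 cells with and without knockdown of USP16. Members were chosen by gene symbol. They were the HSPA, HSPB, HSP90, DNAJA, DNAJB and DNAJC families, the CCT subunits with TCP1, and HSPD1, HSPE1, HSPH1, HSF1, HSF2, BAG3 and AHSA1. Of 144 matching symbols, 51 pseudogenes and 5 antisense or divergent names were left out. The other 88 were in the table, and 69 of them reached a mean level of 1 TPM across the 3 libraries, as did 13637 genes in all. TPM is a read count divided by transcript length and scaled to a common sum per library. The 19 symbols under the minimum included 5 listed at 0 in every library. Just inside it were DNAJB13, with a mean of 1.05 TPM, and HSPA4L, with 1.26 TPM, and just outside was the strictly inducible HSP70 gene HSPA6, with 0.753 TPM.

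PC3 is an androgen-independent prostate cancer cell line. RNA-seq covered 3 libraries, 1 from cells with the vector control shCON, 1 from cells with shUSP16#1 and 1 from cells with shUSP16#2, the last a pair of short hairpin RNAs directed at USP16. USP16 is a ubiquitin-specific protease, which the study examined as a regulator of the oncoprotein c-Myc. According to the study's methods, hairpins were cloned into the lentiviral vector pLKO.1 and stable PC3 cells were selected with puromycin, but the RNA-seq methods do not say that the sequenced cells were such a selected population. With 1 library per condition no difference has a replicate check, no test across samples was possible, and each comparison shares the same shCON library. The depth of each library is unknown from TPM. A lower TPM is a smaller share of the RNA measured, and in such bulk RNA fewer cells of a kind and less RNA per cell cannot be told apart.

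The targeted gene USP16 was at 19.9 TPM in shCON, 3.50 TPM with shUSP16#1 and 1.08 TPM with shUSP16#2. The epithelial keratin genes KRT8 and KRT18 lay between 622 and 947 TPM in all libraries, and the luminal prostate gene KLK3 was listed at 0. Summed fibroblast markers lay between 4.42 and 11.1 TPM, nearly all of it COL1A1, with DCN at 0, and summed leukocyte and endothelial markers reached at most 0.14 and 1.39 TPM.

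Molecular chaperones bind proteins that are not yet folded or that have lost their fold. HSP70 proteins do so in cycles of ATP hydrolysis, in which J-domain proteins (the DNAJ genes) deliver clients and start hydrolysis, and nucleotide exchange factors such as the HSP110 proteins release them. HSP90 proteins act later, on kinases, receptors and other clients, and chaperonins enclose a protein in a barrel. Each compartment has its own set, and the transcription factor HSF1 drives the cytosolic and mitochondrial sets under heat or proteotoxic stress, while ER stress factors drive the ER set.

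The control elements of the inducible members are shown first because members that carry them behaved differently from each other. A heat shock element is a run of inverted GAA units. Promoters of RefSeq on GRCh38.p14, 250 bases before to 50 after the gene start, were found for 62 of the 69 members. The element of 3 units, either GAA, TTC and GAA or TTC, GAA and TTC with any 2 bases between units, was present in the windows of HSPA8, DNAJB6 and DNAJA1, the last just past the start and therefore not printed. Capitals mark the matched letters, and each sequence is given 5′ to 3′ on the strand of the gene.
HSPA8, chr11:123062171-123062199, minus strand, match 55 bases before the start: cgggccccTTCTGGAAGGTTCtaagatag
HSPA8, chr11:123062346-123062374, minus strand, match 230 bases before the start: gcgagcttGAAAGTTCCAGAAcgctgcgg
DNAJB6, chr7:157336865-157336893, plus strand, match 131 bases before the start: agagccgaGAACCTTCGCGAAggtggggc
The shorter form of 2 units, GAA and TTC with any 2 bases between them, reads the same on both strands and is part of every 3-unit match. It was also found in HSPA1A, HSPA1B, HSPB1 and TCP1, which hold no exact 3-unit match, and at a second place in DNAJA1. Only exact units were counted, so an element with an altered unit is missed. HSP90AA1, HSPH1, DNAJB1, BAG3, HSPD1 and HSPE1 matched neither form. The windows of HSPA1A, HSPA1B and HSPB1 are given.
HSPA1A, chr6:31815426-31815455, plus strand, 106 bases before the start: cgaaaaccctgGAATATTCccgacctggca
HSPA1B, chr6:31827622-31827651, plus strand, 105 bases before the start: cgaaacccctgGAATATTCccgacctggca
HSPB1, chr7:76302480-76302509, plus strand, 182 bases before the start: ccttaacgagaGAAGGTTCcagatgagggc
The ER stress element, CCAAT and CCACG with any 9 bases between them on either strand, was found in HSPA5 and, at 2 positions, in HSP90B1.
HSPA5, chr9:125241386-125241414, minus strand, 66 bases before the start: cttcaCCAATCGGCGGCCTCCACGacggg
HSP90B1, chr12:103930211-103930239, plus strand, 194 bases before the start: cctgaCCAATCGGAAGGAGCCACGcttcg
HSP90B1, chr12:103930316-103930344, plus strand, 89 bases before the start, reverse orientation: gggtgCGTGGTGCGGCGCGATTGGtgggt
Among all 27305 promoters of this length, 0.487% held the 3-unit element, 6.87% the 2-unit element and 0.0806% the ER stress element. The shares among the 62 members were 4.84%, 11.3% and 3.23%. A match of letters is a description and does not show that a factor binds there.

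Most chaperone transcripts were lower under both hairpins. Together the members held 10138 TPM in shCON, 7306 TPM with shUSP16#1 and 6171 TPM with shUSP16#2, that is 1.01%, 0.731% and 0.617% of all TPM. Changes are differences of log2(TPM + 1), hairpin library less shCON, which come out too small for low genes, and a gene is said to have fallen or risen where the change was at least 1.5-fold in the same direction under both hairpins. By this rule 28 of 69 members (40.6%) fell, beside 20.8% of all tested genes, and 3 members (4.35%) rose, beside 4.03%. A fall of at least 2-fold under both hairpins was found for 5 members, beside 4.6% of all tested genes, and they were HSPA14, DNAJC2, HSP90AA1, DNAJB14 and HSPD1. No member rose 2-fold, beside 1.14%.

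Members had median log2 changes of -0.42 with shUSP16#1 and -0.76 with shUSP16#2, beside -0.17 and -0.37 over all tested genes. Counting any size of change, 53 members (76.8%) were below shCON under both hairpins, beside 57.2% of all tested genes. Above shCON under both were 7 of 69 members, beside 24.5% of all tested genes. Opposite directions were seen in 9 of 69 members, beside 2375 of the 13637 tested genes. A stepwise order, with shCON highest and shUSP16#2 lowest, was seen in 50 members (72.5%), beside 46.5% of all tested genes. After subtraction of these all-gene medians, 16 members fell and 4 rose, beside 11.2% and 9.74% of all tested genes.

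**Figure D1:**
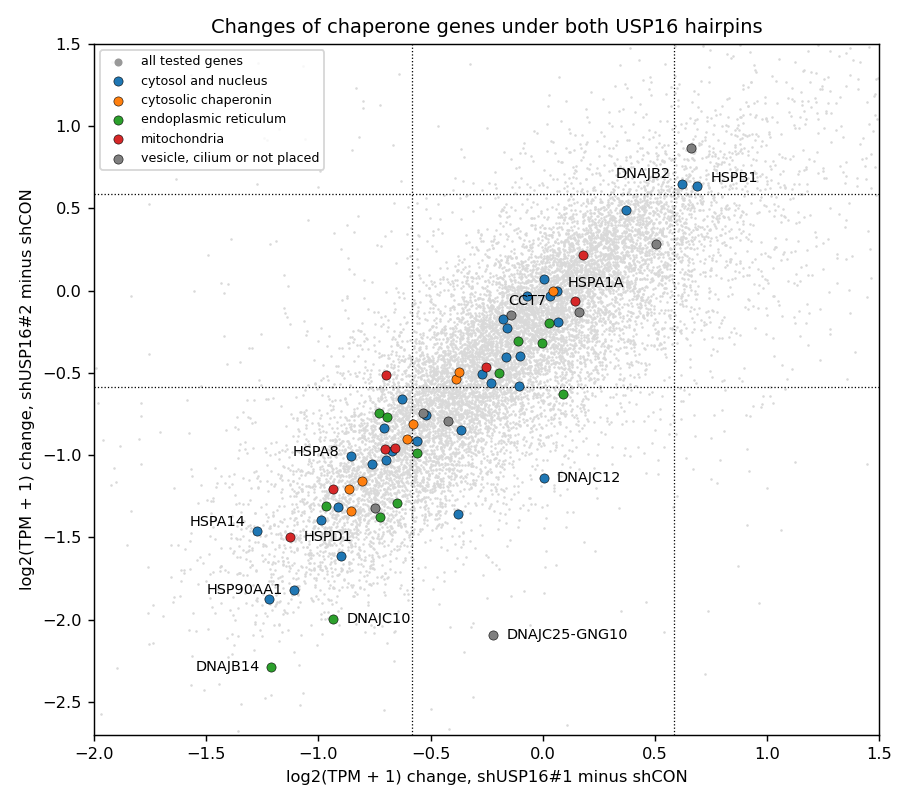
Each coloured point is 1 chaperone gene, placed by its log2(TPM + 1) change with shUSP16#1 (x axis) and shUSP16#2 (y axis) and coloured by compartment, over all tested genes in grey, a few of which lie beyond the axes. Dotted lines mark 1.5-fold, and 28 members lie past both lines at the lower left and 3 at the upper right.

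Cytosolic HSP90 and HSP70 transcripts included the most abundant of all members in shCON. HSPA8, the constitutive HSP70 of the cytosol, was at 1326 TPM in shCON, 732 TPM with shUSP16#1 and 661 TPM with shUSP16#2. It was the most abundant member in shCON and ranked lower with both hairpins, with log2 changes of -0.86 and -1.003. HSP90AA1, the more inducible of the cytosolic HSP90 genes, was at 291, 134 and 81.7 TPM, changes of -1.11 and -1.82, among the largest falls of the list. The constitutive HSP90AB1 was at 1179, 800 and 625 TPM, changes of -0.56 and -0.91. It missed the 1.5-fold rule narrowly with shUSP16#1. The share of HSP90AA1 in the summed TPM of these genes was therefore lower under the hairpins, at 19.8% in shCON, 14.4% with shUSP16#1 and 11.6% with shUSP16#2.

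The 3 cytosolic HSP110 genes, whose proteins exchange nucleotide on HSP70, fell. HSPA4 was at 43.3, 21.3 and 15.9 TPM in shCON, shUSP16#1 and shUSP16#2, changes of -0.99 and -1.39. HSPH1 was at 30.6, 15.9 and 9.30 TPM, changes of -0.90 and -1.62. HSPA4L, close to the minimum, was at 2.12, 0.910 and 0.750 TPM. Changes also followed the GC content of transcripts, and once this GC trend of all genes was removed HSPA4 still passed the rule, and HSPH1 and HSPA4L did not. Over all compartments, 7 of the 11 HSP70 and HSP110 genes (63.6%) fell and none rose, beside 20.8% and 4.03% of all tested genes. Their medians were -0.72 with shUSP16#1 and -1.003 with shUSP16#2, beside all-gene medians of -0.17 and -0.37. After GC removal only 4 of these 11 still fell, beside 12.5% of the genes that have a GC value.

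The pair of chaperones that sit on the ribosome led the cytosolic members when these were ordered by the smaller of their changes. HSPA14, the ribosome-associated HSP70, was at 16.8 TPM in shCON, 6.37 TPM with shUSP16#1 and 5.46 TPM with shUSP16#2, changes of -1.27 and -1.46. Its partner DNAJC2, a J protein also known to bind ubiquitinated histone H2A, was at 22.9, 9.26 and 5.51 TPM, changes of -1.22 and -1.88. HSPA14 had a second entry under another identifier, at 6.64, 4.01 and 3.17 TPM, which was left out of the counts. Reads can be shared between the entries, so the level of HSPA14 is uncertain, and in both entries shCON was highest.

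Other J proteins of the cytosol and nucleus varied widely. DNAJA1, a general HSP70 partner, was at 104, 54.9 and 41.3 TPM in shCON, shUSP16#1 and shUSP16#2, changes of -0.91 and -1.32. DNAJB6, known to keep aggregation-prone proteins soluble, was at 188, 111 and 90.1 TPM, changes of -0.76 and -1.05. DNAJC9, a chaperone of histones H3 and H4, was at 146, 89.5 and 71.0 TPM. An antisense gene, DNAJC9-AS1, overlaps it and was at 1.90, 0.650 and 0.240 TPM, and the strand setting of the authors' counting is not given. DNAJC7, which also binds HSP90, and DNAJC21, needed for ribosome assembly, fell as well. Values just short of the rule came from DNAJA2, at 31.3, 21.5 and 18.1 TPM, and the spliceosomal DNAJC8, at 105, 86.9 and 73.9 TPM, was nearer to shCON. By family, 1 of 3 DNAJA, 3 of 10 DNAJB and 9 of 24 DNAJC genes fell and 2 DNAJB genes rose, where 20.8% of all tested genes fell and 4.03% rose.

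The genes best known for heat induction did not move together. HSPA1A, the main stress-inducible HSP70, was at 62.3 TPM in shCON, 65.1 TPM with shUSP16#1 and 62.2 TPM with shUSP16#2. HSPA1B, its near-identical neighbour on chromosome 6, was at 53.0, 49.3 and 40.0 TPM, and reads cannot be assigned with certainty to either copy. Neither passed the rule. Summed over both copies, inducible HSP70 amounted to 8.70% of HSPA8 in shCON, 15.6% with shUSP16#1 and 15.5% with shUSP16#2. DNAJB1, the J protein induced with HSP70, was at 136, 122 and 116 TPM, and BAG3, a nucleotide exchange factor that links HSP70 to autophagy, was at 25.2, 22.2 and 22.2 TPM. The changes of DNAJB1 and BAG3 lay between -0.23 and -0.16, beside all-gene medians of -0.17 with shUSP16#1 and -0.37 with shUSP16#2. With the GC trend removed DNAJB1 was at -0.28 and -0.37 and BAG3 at -0.45 and -0.57. The all-gene medians were then -0.18 and -0.37.

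HSF1, which encodes the main heat shock transcription factor, was at 100.3, 100.7 and 105 TPM, log2 changes of 0.01 and 0.07. Its relative HSF2 was far lower, at 4.18, 3.02 and 1.88 TPM. AHSA1, which activates the ATPase of HSP90, was at 156, 139 and 118 TPM, changes of -0.17 and -0.40. HSPBP1, an exchange factor of HSP70, was at 101.3, 104 and 99.1 TPM. None of the 6 regulators and co-chaperones among the members passed the rule in either direction, where 20.8% of all tested genes fell and 4.03% rose. With the GC trend removed HSF1 was at -0.39 and -0.46 and HSPBP1 at -0.36 and -0.56, beside all-gene medians of -0.18 and -0.37. Below the median of genes of like GC content under both hairpins were 4 of the 6, beside 38.8% of the genes that have a GC value.

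Of the 3 members that rose, only HSPB1 and DNAJB2 were above 2 TPM in any library. HSPB1, the ATP-independent small heat shock protein HSP27, was at 460 TPM in shCON, 742 TPM with shUSP16#1 and 714 TPM with shUSP16#2, changes of 0.69 and 0.63. Only HSP90AB1 was more abundant than HSPB1 with shUSP16#1, and no member was with shUSP16#2. The ratio of HSPB1 to HSPA8 was 0.347 in shCON, 1.01 with shUSP16#1 and 1.08 with shUSP16#2. DNAJB2, a J protein with ubiquitin-interacting motifs that is abundant in neurons, was at 51.5, 79.8 and 81.3 TPM, changes of 0.62 and 0.65. DNAJB5 was at 3.38, 4.66 and 5.16 TPM, which fell short of the rule.

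**Figure D2:**
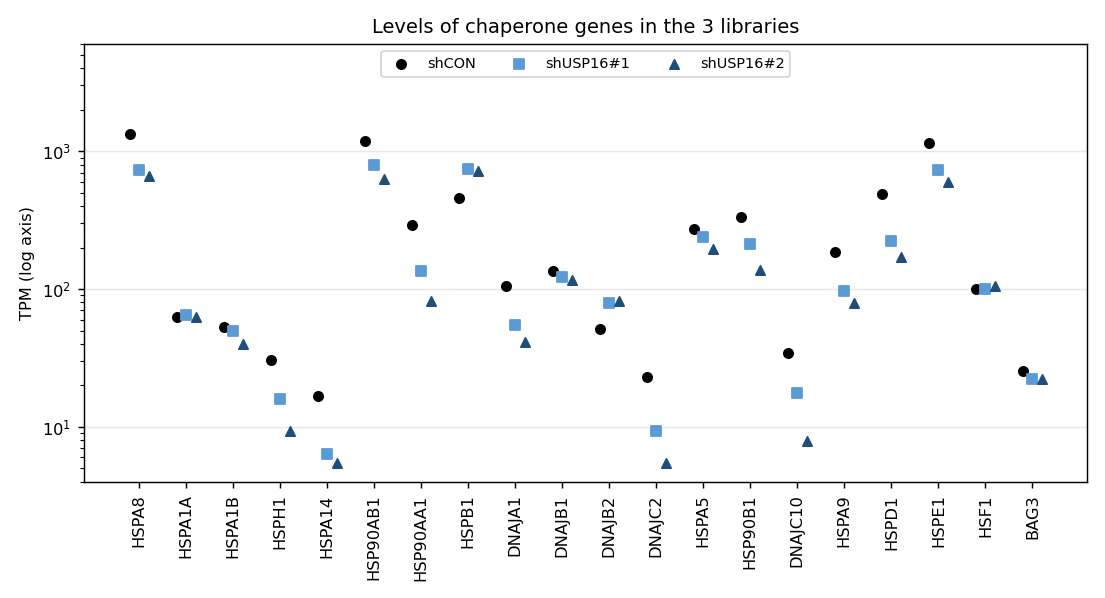
TPM on a log axis of 20 chaperone genes in shCON (black circles), shUSP16#1 (light squares) and shUSP16#2 (dark triangles), 1 library each and so without error bars. HSPA8, HSP90AA1, HSPH1, DNAJC2 and HSPD1 step down from shCON. HSPA1A and HSF1 stay level in TPM, before any GC removal, and HSPB1 and DNAJB2 lie above shCON under both hairpins.

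The cytosolic chaperonin TRiC folds actin, tubulin and many other proteins in a double ring, in which each of the 8 subunit types appears at equal stoichiometry. Its transcripts did not change equally. Summed over subunits, they were at 2247 TPM in shCON, 1627 TPM with shUSP16#1 and 1417 TPM with shUSP16#2. CCT6A was at 203, 111 and 87.2 TPM, changes of -0.86 and -1.21. CCT8 was at 258, 142 and 101.5 TPM, changes of -0.85 and -1.34. CCT2 was at 260, 148 and 116 TPM, changes of -0.81 and -1.16. In 7 of the 8 subunits (87.5%) shCON was highest and shUSP16#2 lowest, beside 46.5% of all tested genes. CCT5 completed the 4 subunits that fell (50%, beside 20.8% of all tested genes), at 247, 162 and 132 TPM. TCP1, at 167, 112 and 94.9 TPM, missed the rule narrowly with shUSP16#1, with a change of -0.58.

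In TPM the other 3 subunits lay closer to shCON. CCT3, the most abundant subunit in every library, was at 561, 430 and 387 TPM, changes of -0.38 and -0.54. CCT4 was at 176, 136 and 125 TPM, changes of -0.38 and -0.49. CCT7 was level, at 374, 387 and 373 TPM. As a result CCT7 made up 16.7% of subunit TPM in shCON, 23.8% with shUSP16#1 and 26.4% with shUSP16#2. The ratio of the highest to the lowest subunit was 3.36 in shCON, 3.87 with shUSP16#1 and 4.44 with shUSP16#2, and the coefficient of variation over the 8 subunits was 46.5%, 63.0% and 71.4%.

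**Figure D3:**
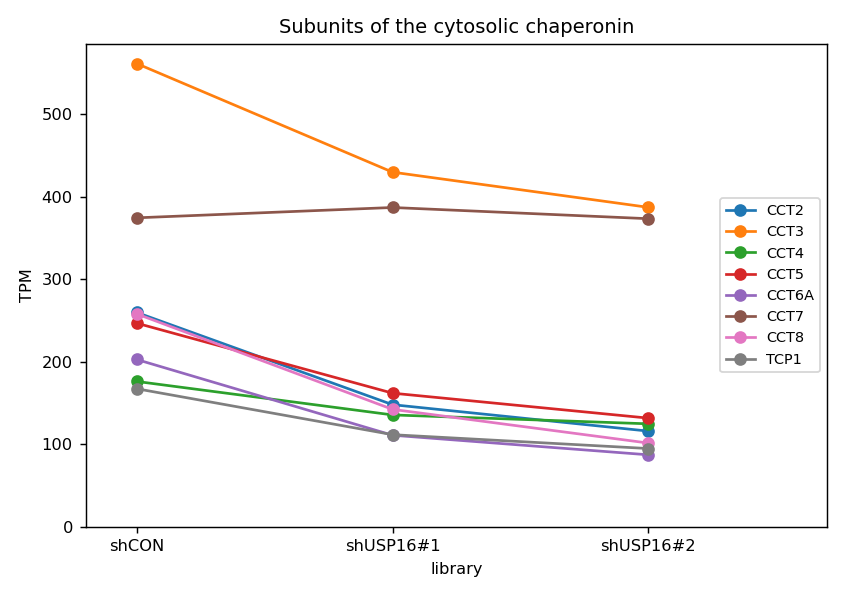
TPM of the 8 subunits of the cytosolic chaperonin in each library, with lines joining the values of 1 subunit. CCT7 stays between 373 and 387 TPM, while all other subunits are lower under each hairpin and the spread among subunits is wider in relative terms.

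In the endoplasmic reticulum, 7 of 13 members (53.8%) fell and none rose, beside 20.8% and 4.03% of all tested genes. Of these, 3 falls were left after subtraction of the all-gene medians, beside 11.2% of all tested genes. Only DNAJB14 was left with the GC trend removed, beside 12.5% of the genes that have a GC value. HSP90B1, the ER form of HSP90 (GRP94), was at 335 TPM in shCON, 213 TPM with shUSP16#1 and 136 TPM with shUSP16#2, changes of -0.65 and -1.29. HSPA5, the ER HSP70 (BiP), was nearer to shCON, at 274, 240 and 194 TPM, changes of -0.20 and -0.50. Both carry the ER stress element printed above, and the ratio of HSPA5 to HSP90B1 was 0.820 in shCON, 1.12 with shUSP16#1 and 1.42 with shUSP16#2.

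J proteins were most of the ER members, among those that fell and among the others alike. DNAJB14, anchored in the ER membrane, was at 10.5, 3.95 and 1.34 TPM, changes of -1.21 and -2.29. DNAJC10, a disulfide reductase that prepares misfolded proteins for degradation, was at 34.3, 17.5 and 7.87 TPM, changes of -0.94 and -1.99. DNAJC3, which carries misfolded proteins to BiP and inhibits the kinase PERK, was at 9.17, 4.20 and 3.10 TPM. DNAJB9, a repressor of the stress sensor IRE1, was at 9.60, 5.40 and 5.33 TPM and so at the same level under both hairpins. HSPA13, a small HSP70 of microsomes, was at 19.5, 11.4 and 6.89 TPM, and the low DNAJC18 was at 2.71, 1.29 and 1.18 TPM. DNAJB11, the abundant soluble BiP partner, was at 125, 84.0 and 62.5 TPM, changes of -0.56 and -0.98. It lies just outside the rule. DNAJB12, at 14.2, 13.1 and 11.3 TPM, and DNAJC14, at 28.7, 29.3 and 24.95 TPM, lay closer to shCON.

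In mitochondria, 4 of 8 members (50%) fell and none rose, again beside 20.8% and 4.03%. After subtraction of the all-gene medians 2 falls were left, and with the GC trend removed all 4. HSPD1, the mitochondrial chaperonin HSP60, was at 486 TPM in shCON, 222 TPM with shUSP16#1 and 172 TPM with shUSP16#2, changes of -1.13 and -1.49. HSPE1, its lid HSP10, was at 1155, 732 and 596 TPM, changes of -0.66 and -0.95. Both fell, HSPD1 further, so that the ratio of HSPE1 to HSPD1 was 2.38 in shCON, 3.30 with shUSP16#1 and 3.47 with shUSP16#2. In GENCODE release 29 on GRCh38, HSPE1 (chr2:197499994-197503457, plus strand) lies within the annotated extent of HSPD1 (chr2:197486581-197516737, minus strand), and reads at the overlap cannot be told apart without strand. HSPA9, the mitochondrial HSP70 that also drives protein import, was at 185, 96.5 and 79.8 TPM, changes of -0.93 and -1.21. DNAJC11, an outer membrane protein associated with cristae organisation, was at 105, 63.8 and 53.2 TPM.

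The remaining mitochondrial J proteins did not pass the rule. DNAJC19, a motor partner at the import channel, was at 54.5, 45.7 and 39.3 TPM. DNAJC15, its low paralog, was at 3.49, 1.77 and 2.15 TPM. DNAJA3, the matrix partner of HSPA9, was level at 52.3, 57.9 and 50.04 TPM, unlike HSPA9 itself, and DNAJC30 was at 9.70, 11.1 and 11.5 TPM.

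Of the 8 members placed in vesicles or cilia or in no compartment, 1 (12.5%) fell and 1 (12.5%) rose. Of all tested genes 20.8% fell and 4.03% rose. DNAJC13, a J protein of early endosomes, was at 5.34, 2.78 and 1.54 TPM, changes of -0.75 and -1.32. DNAJB13, a component of the radial spokes of motile cilia and sperm tails, rose from 0.400 TPM to 1.21 and 1.55 TPM, at the edge of the minimum. DNAJC5, the cysteine string protein of secretory vesicles, was at 58.8, 65.8 and 53.5 TPM. DNAJC4 was at 36.2, 51.8 and 44.4 TPM, above shCON under both hairpins but short of the rule. HSPB11, an intraflagellar transport protein despite its name, was at 42.1, 28.8 and 24.8 TPM.

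By compartment, the median log2 changes with shUSP16#1 and shUSP16#2 were -0.32 and -0.71 for the 32 members of the cytosol and nucleus. They were -0.59 and -0.86 for the cytosolic chaperonin, -0.65 and -0.77 for the ER and -0.68 and -0.73 for mitochondria. The members of vesicles, cilia or no compartment had -0.18 and -0.45, near the medians of all tested genes. Falls made up 37.5% of the members of the cytosol and nucleus, 50% of the chaperonin, 53.8% of the ER and 50% of the mitochondrial members, beside 20.8% of all tested genes. Rises were found in the cytosol and nucleus, with 2 genes or 6.25%, and in the group of vesicles, cilia or no compartment, with 1 gene or 12.5%, beside 4.03%. Within each compartment members ranged from near or above 0 to a change below -1, so the compartments overlapped and their medians differed by less than the spread among their own members. Summed levels in shCON, shUSP16#1 and shUSP16#2 were 2051, 1231 and 1003 TPM for mitochondria and 4788, 3632 and 3150.3 TPM for the cytosol and nucleus.

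**Figure D4:**
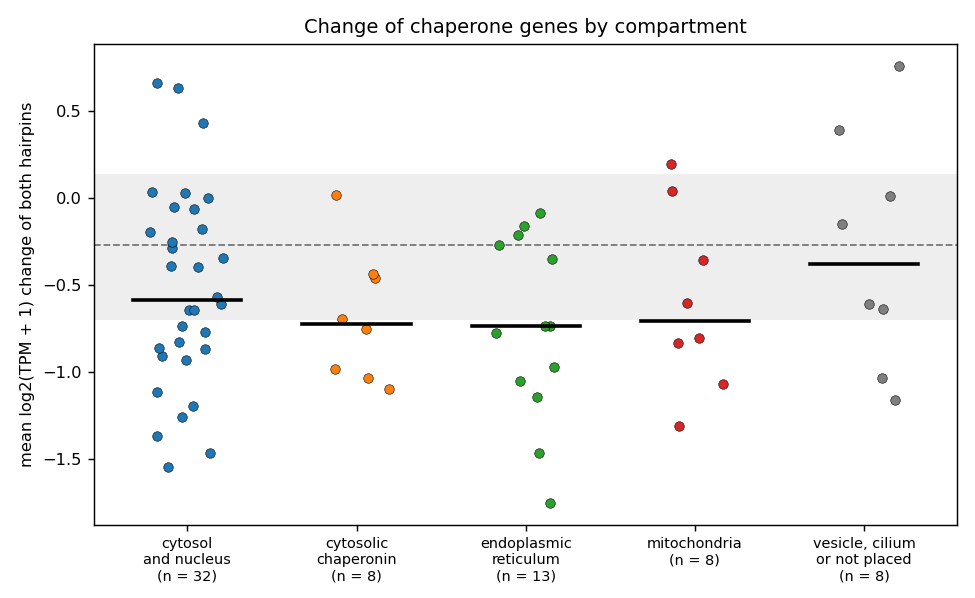
Mean log2(TPM + 1) change of both hairpins for each member, by compartment, with the black bar at the compartment median, the dashed line at the all-gene median (-0.27) and the grey band over their central 50%. The bars of the first 4 compartments lie between -0.74 and -0.59, and points of all compartments overlap.

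The hairpins did not lower every member alike. With shUSP16#2, 61 members (88.4%) were lower than with shUSP16#1, beside 73.4% of all tested genes. The readthrough gene DNAJC25-GNG10 differed most, at 23.3 TPM in shCON, 19.9 TPM with shUSP16#1 and 4.70 TPM with shUSP16#2. It shares exons with GNG10, which was at 55.6, 43.4 and 11.3 TPM, while DNAJC25, at 6.64, 4.70 and 3.42 TPM, did not drop as far. DNAJC12, a J protein that assists the aromatic amino acid hydroxylases, was level in shCON and shUSP16#1, at 23.5 and 23.6 TPM, and was at 10.2 TPM with shUSP16#2. DNAJC24, needed to make the diphthamide of elongation factor 2, was at 11.1, 8.29 and 3.72 TPM. With 1 library each, a difference between hairpins cannot be told apart from a difference between libraries.

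The changes of the members went with the GC content of their transcripts, as those of all genes did. Across the 69 members the rank correlation of the change with GC content was 0.58 with shUSP16#1 and 0.64 with shUSP16#2, and across the 13296 tested genes with a GC value it was 0.53 and 0.63. These are descriptions across genes, which share libraries and are not independent replicates. Members had a median GC content of 44.7%, beside 49.1% of all tested genes. With all tested genes split into 4 equal groups by GC content, the lowest, up to 42.5%, held 21 members with a median change of -0.77, beside -0.78 for all tested genes in it, and 11 of them fell, beside 47.5%. In the second, up to 49.1%, 14 of 22 members fell, beside 24.6% of all genes there, and their median of -0.90 compared with -0.45. In the third, up to 56.8%, 3 of 17 members fell and 1 rose, beside 9.30% and 3.91% of all genes there. In the highest, none of 9 fell and 2 rose, beside 2.44% and 9.03%.

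With the GC trend of all genes removed, 16 members (23.2%) fell and 1 (DNAJB13) rose, beside 12.5% and 2.34% of the genes that have a GC value. HSPB1, with a GC content of 64.3%, and DNAJB2, with 59.1%, no longer passed the rule. In the ER only DNAJB14 of the 7 falls was left, and HSP90B1, DNAJC10, DNAJC3, DNAJB9, HSPA13 and DNAJC18 were lost. All 4 mitochondrial falls were left, as were 8 of 12 in the cytosol and nucleus, where DNAJA1, HSPH1, HSPA4L and DNAJC21 were lost, and 3 of 4 chaperonin subunits, without CCT5. DNAJC13 was also lost. Changes below the median of genes of like GC content under both hairpins were found for 37 members (53.6%), beside 38.8% of these genes. For the chaperonin this was so for 6 of 8 subunits, for the cytosol and nucleus 18 of 32, for the ER 7 of 13 and for mitochondria 4 of 8. Several of the unequal pairs above also differed in GC content, at 41.2% for HSP90B1 and 46.0% for HSPA5, 44.2% for HSPD1 and 50.2% for HSPE1, and 47.0% for HSPA8 and 59.7% for HSPA1A. Among chaperonin subunits, CCT7 had 51.3% and CCT3 51.2%, and the other 6 lay between 43.1% and 45.9%. With the trend removed, CCT7 was at 0.06 and -0.07, CCT3 at -0.37 and -0.60 and CCT8 at -0.60 and -0.99. CCT4 was at -0.22 and -0.23 and TCP1 at -0.38 and -0.51. HSPA1A was at -0.22 and -0.49 and HSPA8 at -0.73 and -0.82. The part of GC content in these changes was not tested.

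**Figure D5:**
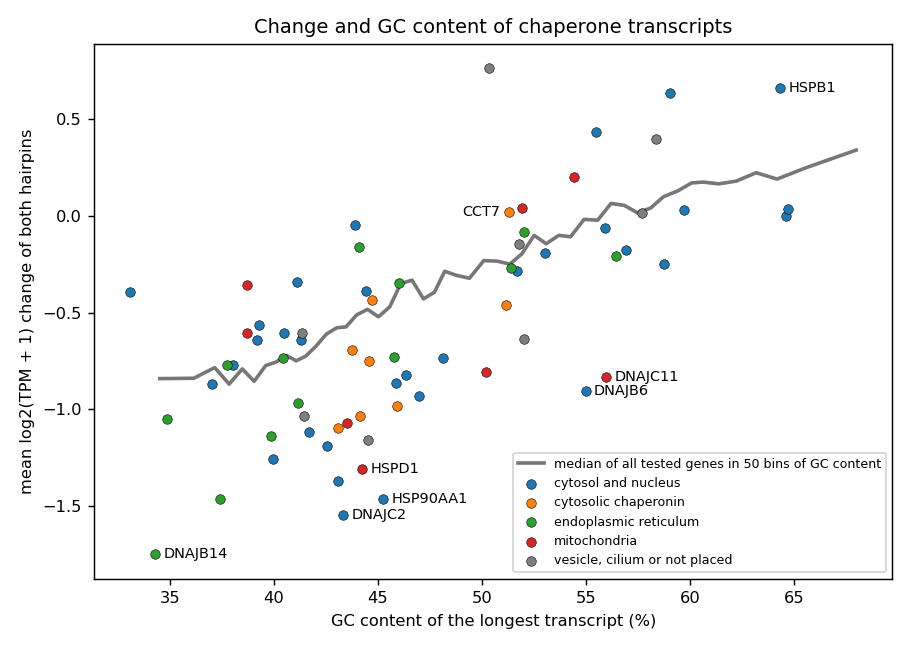
Mean log2(TPM + 1) change of both hairpins against the GC content of the longest transcript (%), for each member by compartment, with the grey line at the median of all tested genes in 50 bins of GC content. HSP90AA1, DNAJC2, HSPD1, DNAJB6 and DNAJC11 lie well below the line, and HSPB1 lies above it at the right.

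Partners of the chaperones outside the symbol rule were described by lists written from knowledge of the pathways. Of 22 other cytosolic co-chaperones, 9 (40.9%) fell and none rose, beside 20.8% and 4.03% of all tested genes, with medians of -0.51 and -0.78 beside -0.17 and -0.37. CHORDC1, an HSP90 partner that also responds to heat shock, was at 41.7, 16.2 and 13.6 TPM, and FKBP5, an immunophilin of steroid receptor complexes, was at 14.0, 4.70 and 5.89 TPM. PTGES3, the HSP90 co-chaperone p23, was at 364, 210 and 195 TPM. The ubiquitin ligase STUB1 (CHIP), which marks chaperone clients for degradation, was at 125, 155 and 171 TPM. UNC45A, a myosin chaperone that binds HSP90, was at 46.3, 55.7 and 54.0 TPM.

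Prefoldin, which hands actin and tubulin to the chaperonin, had 2 of 6 subunits (33.3%) that fell, beside 20.8% of all tested genes. Its medians were -0.15 and -0.55, beside -0.17 and -0.37. VBP1 was at 71.7, 37.9 and 27.9 TPM and PFDN4 at 181, 115 and 105 TPM. PFDN5, at 649, 840 and 758 TPM, was above shCON under both hairpins, so that these subunits too changed unequally. PFDN2, at 608, 527 and 456 TPM, and PFDN6, at 185, 193 and 204 TPM, lay between them. Of 13 other ER folding genes, 2 (15.4%) fell, a smaller share than the 20.8% of all tested genes. The lectin chaperone CANX was at 191, 82.7 and 74.7 TPM and the translocon J protein SEC63 at 10.5, 4.91 and 3.67 TPM. PDIA3, a disulfide isomerase of glycoproteins, was at 412, 290 and 262 TPM, changes of -0.51 and -0.65. The medians of that list were -0.32 and -0.31, beside -0.65 and -0.77 for the ER members. SDF2L1, an ER stress gene that stabilises BiP complexes, was at 225, 258 and 278 TPM.

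Of 8 other mitochondrial folding genes, 3 (37.5%) fell, beside 20.8% of all tested genes, with medians of -0.29 and -0.33 that lay near those of all genes. They were GRPEL1, at 32.03, 20.2 and 18.1 TPM, and GRPEL2, at 25.7, 16.4 and 9.24 TPM, both nucleotide exchange factors of HSPA9, and the unfoldase CLPX, at 15.6, 9.39 and 5.45 TPM. TRAP1, the mitochondrial HSP90, was at 184, 172 and 194 TPM, and the protease LONP1 at 156, 191 and 194 TPM. Of the 10 tested genes of the HSF1-inducible core, all members, 5 (50%) fell and HSPB1 rose, beside 20.8% and 4.03% of all tested genes, with medians of -0.42 and -0.68.

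Read against the promoters, the 3 members with a 3-unit heat shock element, HSPA8, DNAJB6 and DNAJA1, all fell. So did 23 of the 59 matched members without it and 20.8% of all tested genes. Of the 7 members with the 2-unit element the same 3 fell, beside 23 of the 55 without it. HSPB1 rose, beside 4.03% of all tested genes, and HSPA1A, HSPA1B and TCP1 did not pass the rule. Once the GC trend was removed, DNAJA1 and HSPB1 no longer passed it. The inducible pair HSPA1A and HSPA1B and the constitutive HSPA8 thus share the 2-unit element and differed in their change. These counts are too small to set the groups apart.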

How the data were processed

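RNA was extracted from PC3 cells with Trizol and sequenced from Illumina TruSeq libraries, 1 library per condition. The authors deposited 1 table of TPM with 2 decimals for 60930 genes. The submitters' processing notes name CASAVA, HISAT2 and the build hg19. The quantification tool is not given in the sources used here, and 57308 of the table's names matched GENCODE release 29 on GRCh38, which supplied coordinates and GC content (longest transcript). Because TPM keeps no record of depth, no interval or floor was given. 3 columns that repeat others were not used. Of entries with the same name, that with the highest mean was kept, which gave 59719 names, 13637 of which reached a mean of 1 TPM and are the tested genes.

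Changes were log2(TPM + 1) under a hairpin minus shCON, called at 1.5-fold under both hairpins. To remove the GC trend, tested genes were sorted by GC content into 50 bins, each bin's median change was subtracted, and the overall median was restored. The members, compartments and lists were chosen with earlier results of these data known. Named genes were the main members, the 4 lowest and 3 highest of each compartment, the 3 lowest and 2 highest of each partner list, ordered by the smaller change, USP16 and markers, some of which are not reported here. Members outside this rule, such as DNAJC12, DNAJC24, DNAJA2 and PTGES3, were named after their values were seen. Alternatives were a pseudocount of 0.1 TPM, centring, GC removal, no minimum or 5 TPM, 2-fold, each hairpin alone and protein-coding genes alone. GC removal with centring, and all alternatives of the partner lists, were chosen after seeing the data. The procedure was tested on simulated 2-fold changes, in genes well above the 1 TPM minimum and with a set noise. That does not cover 1.5-fold changes or genes near the minimum. Software was pandas 2.3.3 and numpy 2.4.6 on Python 3.11.15, with matplotlib 3.10.9 for plots and scipy 1.17.1 for rank correlations.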

Additional observations from a re-analysis of the deposited data

Results flagged for a closer look

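DNAJC27-AS1, an antisense gene left out of the list by its name, was at 0.04 TPM in shCON, 6.21 TPM with shUSP16#1 and 0.16 TPM with shUSP16#2. It stood out because it was above shCON among the names that the member counts do not use, although it is among the 13637 tested genes. The value came from 1 library, and its cause was not tested.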

How the results depend on the processing

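No paired analysis was possible because the labels give no shared replicate numbers and every condition was sequenced as 1 library. Falls were counted in 28 members and rises in 3. Centred on the all-gene median these were 16 and 4, with the GC trend removed 16 and 1, at 2-fold 5 and 0, and with the GC trend removed and centring together 7 and 1. That last setting, chosen after seeing the data, left HSPA14, DNAJC2, HSP90AA1, HSPD1, DNAJB6, DNAJB14 and DNAJC11 as the falls. They were 10.1% of members, beside 4.57% of the genes that have a GC value. With shUSP16#1 alone, 29 members (42.0%) fell and 3 (4.35%) rose, beside 23.2% and 8.72% of all tested genes. With shUSP16#2 alone, 39 members (56.5%) fell and 3 (4.35%) rose, beside 38.5% and 7.32%. With 1 hairpin alone the compartment medians ranged from -0.71 to -0.32 (cytosol and nucleus), -0.86 to -0.59 (chaperonin) and -0.77 to -0.65 (ER). They ranged from -0.73 to -0.68 (mitochondria) and -0.45 to -0.18 (vesicle, cilium or not placed). The partner lists ranged from -0.78 to -0.51 (cytosolic co-chaperones), -0.55 to -0.15 (prefoldin), -0.32 to -0.31 (ER folding), -0.33 to -0.29 (mitochondrial folding) and -0.68 to -0.42 (HSF1-inducible core).

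Centring moved the medians of the mean change of both hairpins to -0.32 (cytosol and nucleus), -0.45 (chaperonin), -0.47 (ER), -0.44 (mitochondria) and -0.11 (vesicle, cilium or not placed), and the partner lists to -0.40 (cytosolic co-chaperones), -0.080 (prefoldin), -0.045 (ER folding), 0.011 (mitochondrial folding, a reversal) and -0.26 (HSF1-inducible core). Removing the GC trend gave -0.38 (cytosol and nucleus), -0.51 (chaperonin), -0.47 (ER), -0.42 (mitochondria), -0.33 (ER folding) and -0.43 (mitochondrial folding), and took the HSF1-inducible core from -0.53 to -0.69. Both together gave -0.11 (cytosol and nucleus), -0.24 (chaperonin), -0.20 (ER), -0.15 (mitochondria), 0.025 (vesicle, cilium or not placed, a reversal), -0.18 (cytosolic co-chaperones), -0.012 (prefoldin), -0.050 (ER folding), -0.15 (mitochondrial folding) and -0.42 (HSF1-inducible core), and PFDN4 reversed to 0.15. A pseudocount of 0.1 TPM gave -0.81 for mitochondria. No minimum gave -0.23 (cytosol and nucleus, from -0.59), -0.60 (mitochondria), -0.073 (vesicle, cilium or not placed) and -0.25 (HSF1-inducible core), and 5 TPM gave -0.81 (mitochondria) and -0.22 (cytosolic co-chaperones). The causes were not tested. TPM holds no depth, so no limit from counting could be set.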

Other observations

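HSPE1-MOB4, a readthrough gene from HSPE1, was at 0.96 TPM in shCON, 1.52 TPM with shUSP16#1 and 0.58 TPM with shUSP16#2. The most abundant of the 51 chaperone pseudogenes, HSPB1P1, had a mean of 0.697 TPM. It was at 2.09 TPM in shCON and at 0 TPM with shUSP16#1 and shUSP16#2. HSPB1P2 was at 0.39, 0 and 0 TPM, so both were seen in the shCON library only, whereas HSPB1 rose.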
